A study of Mus musculus with 18 samples.

Results

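Filaggrin (Flg) and 7 other genes that keratinocytes use in the last step of their life, cornification, were followed across the skin of mice with activated Notch. The other genes were Ivl, Casp14, Lce3a, Lce3f, Tgm1, Tgm3 and Asprv1. All probe sets that the platform annotation assigns to these symbols were taken, whatever their values, which gave 11 probe sets for the 8 genes out of 45037 probe sets and 18193 named genes. Ivl, Casp14 and Tgm3 each had a pair of probe sets, and the other genes had 1. Of the 11 probe sets, 10 lay above the filter on dim signal, a mean log2 value of 3.15 over all arrays, and were tested among 31526 probe sets. The probe set 1443787_x_at of Casp14 fell below it and was not tested.

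RNA was measured on 18 one-colour Affymetrix arrays, 3 in each of 6 groups: K14NICDER transgenic epidermis and wild-type epidermis, K14NICDER transgenic dermis and wild-type dermis, and K14NICDER transgenic whole skin and wild-type whole skin. All mice were C57Bl6xCBA F1 females that were 7 weeks old at the start, and both genotypes received 4OHT, 4-hydroxytamoxifen, for 14 days, so the wild-type groups carry any effect of the compound itself. K14NICDER is the Notch intracellular domain fused to a hormone-binding domain that 4OHT switches on, driven by the keratin 14 promoter, which works in basal keratinocytes and in hair follicle keratinocytes, not in dermal fibroblasts. The labels do not say how many animals gave each RNA sample, nor whether the 3 tissues came from the same animals, so the p-values reflect only how much these samples vary, which may be technical.

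Keratinocytes leave the basal layer, pass through spinous and granular layers and end as dead, flattened corneocytes. In the granular layer they store profilaggrin, which is cut into filaggrin units that bundle keratin filaments and are later broken down to amino acids that hold water. At the same time involucrin, loricrin, small proline-rich proteins and late cornified envelope (LCE) proteins are cross-linked by transglutaminases into the cornified envelope under the cell membrane. Notch signalling is known in epidermis as a signal for leaving the basal layer and entering the spinous program. Flg, Ivl, Lce3a and Lce3f lie in the epidermal differentiation complex, a cluster of barrier genes on mouse chromosome 3, whereas Casp14, Tgm1, Tgm3 and Asprv1 lie on chromosomes 10, 14, 2 and 6.

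The 250 bases before the annotated start of each gene were read from RefSeq promoters on GRCm38.p6, and all 8 genes matched, with 2 start sites for Tgm1. The windows of Flg and Ivl are shown because they hold the same pair of motifs and both genes were higher in transgenic skin. The capitals mark, in 5′ to 3′ order, an AP-1 motif, searched as TGANTCA on both strands, and a TATA box, searched as TATAAA on both strands. The Flg window is chr3:93273296-93273545 on the plus strand, and the Ivl window is chr3:92573736-92573985 on the minus strand.
Flg: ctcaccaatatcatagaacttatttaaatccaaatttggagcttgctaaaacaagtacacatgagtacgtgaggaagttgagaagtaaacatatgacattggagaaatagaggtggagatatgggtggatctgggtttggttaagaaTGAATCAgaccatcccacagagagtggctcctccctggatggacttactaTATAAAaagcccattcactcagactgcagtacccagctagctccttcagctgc
Ivl: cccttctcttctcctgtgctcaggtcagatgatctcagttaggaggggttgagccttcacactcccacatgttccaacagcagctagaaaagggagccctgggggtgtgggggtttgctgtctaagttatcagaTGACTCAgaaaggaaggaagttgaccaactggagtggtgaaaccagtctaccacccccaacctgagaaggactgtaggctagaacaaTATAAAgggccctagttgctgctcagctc
The AP-1 match began 103 bases before the start in Flg and 116 bases before it in Ivl, and the TATA box 53 and 29 bases before it. AP-1 letters occurred in 6.75% of all 32851 promoter windows of this length and in no other window of the 8 genes. TATA box letters occurred in 12.4% of all windows and, among the other genes, in Tgm3, 28 bases before the start. The letters TGGGAA of RBPJ, the DNA-binding partner of the Notch intracellular domain, occurred in 21.6% of all windows, and here in Lce3a, 126 bases before the start, and in 1 of the Tgm1 windows, 64 bases before the start on the reverse strand. Letters for GATA factors (AGATAA, 9.99% of all windows) and for Grainyhead-like factors (AACNNGTT, 3.64% of all windows) occurred in none of the 9 windows. No match overlapped another, and a match is a description of letters, not evidence of binding.

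Lce3a and Lce3f are close relatives, and their stretch of shared promoter sequence is shown because it scored highest. Their patterns across the arrays had a Pearson r of 0.857, lower than that of Flg and Casp14 (0.978). Any relation between this stretch and the patterns was not tested. Local alignment of the 35 pairs of windows from different genes gave the highest score to Lce3a and Lce3f, which shared 22 of 24 bases (91.7%). Capitals mark the shared bases in the Lce3a stretch, chr3:92926302-92926325 on the minus strand, and in the Lce3f stretch, chr3:92992139-92992162 on the plus strand.
Lce3a: GTTGTGAAAaCAGCAaCATGCTTG
Lce3f: GTTGTGAAAgCAGCAgCATGCTTG
The next highest score belonged to Tgm3 and Lce3f, with 14 of 15 bases.

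All values are log2 MAS5 signals as deposited, and differences are differences of group means with the standard error from limma. Over all tested probe sets, the SD between the 3 arrays of a group had a median of 0.203 in transgenic and 0.202 in wild-type whole skin, 0.396 and 0.489 in transgenic and wild-type epidermis, and 0.593 and 0.357 in transgenic and wild-type dermis. Transgenic dermis replicates 3 and 1 were the arrays least like the others of their group, with a mean correlation with the other arrays of their group of 0.825 and 0.83, against at least 0.961 on every whole-skin array. Each tissue was therefore tested for genotype on its own 6 arrays, whereas fits across tissues gave the compared tissues a common spread. In bulk tissue, fewer cells of a type and less RNA per cell cannot be told apart.

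**Figure D1:**
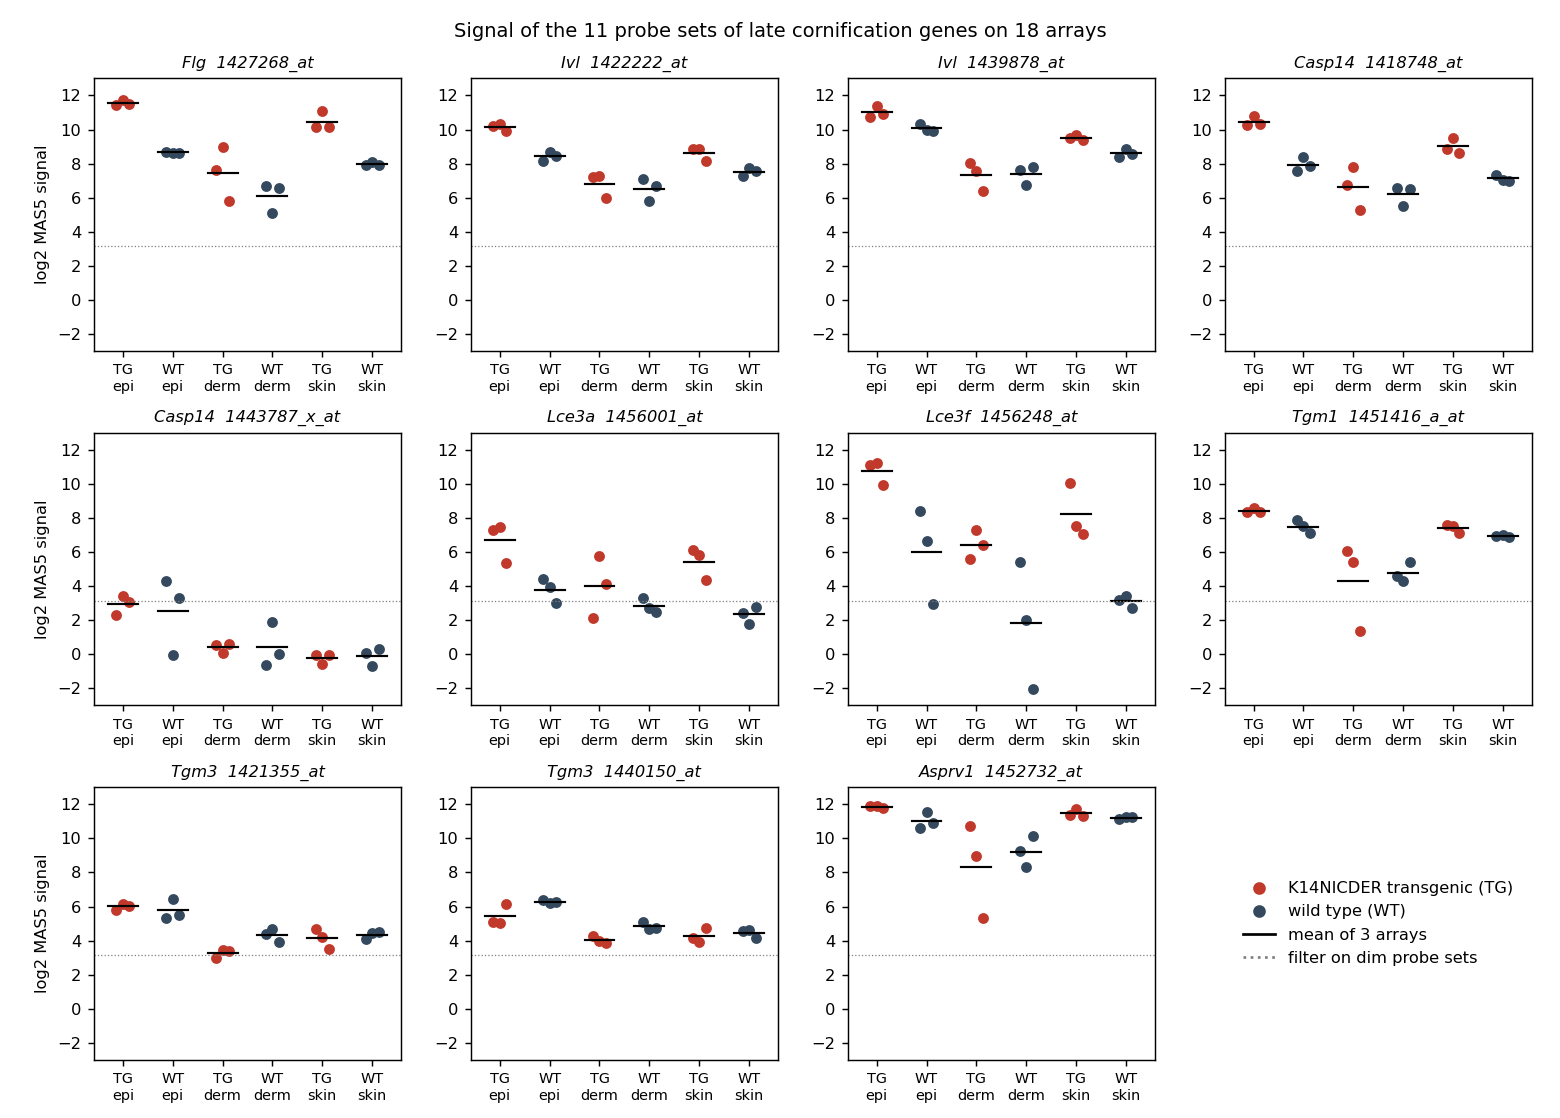
Log2 MAS5 signal (y axis) of the 11 probe sets on each of the 18 arrays, by group (x axis: epidermis, dermis and whole skin, transgenic in red left of wild type in blue). Points are arrays, black bars are means of 3 arrays, and the dotted line is the filter at 3.15; Flg lies between 11.45 and 11.74 in transgenic epidermis and between 8.63 and 8.70 in wild-type epidermis.

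The layers were compared first in wild-type mice, to see where these transcripts normally lie. Flg, Ivl, Casp14, Tgm1, Tgm3 and Asprv1, 6 of the 8 genes, were lower in dermis than in epidermis. They account for 8 of the 10 tested probe sets, against a background of 9.46% of all tested probe sets lower in wild-type dermis. Flg had 6.67, 5.09 and 6.55 in wild-type dermis, against 8.70, 8.64 and 8.63 in wild-type epidermis, a difference of −2.55 ± 0.39 (adjusted p = 0.00189). Tgm1, the membrane-bound transglutaminase that attaches the first envelope proteins, had 4.61, 4.31 and 5.41 in wild-type dermis and 7.86, 7.52 and 7.12 in wild-type epidermis, a difference of −2.72 ± 0.37 (adjusted p = 0.00106). The groups did not overlap in either gene. Ivl was lower in wild-type dermis by differences of −1.90 ± 0.35 and −2.69 ± 0.31, Casp14 by −1.73 ± 0.36 and Asprv1 by −1.79 ± 0.42. The probe sets of Tgm3 differed by −1.46 ± 0.45 (adjusted p = 0.0426) and −1.42 ± 0.34 (adjusted p = 0.0158).

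The Lce3 genes did not pass the test between the wild-type layers. Lce3a had 3.29, 2.70 and 2.46 in wild-type dermis and 4.43, 3.95 and 3.0 in wild-type epidermis, a difference of −0.97 ± 0.71 (adjusted p = 0.342). Lce3f varied more than any other member, with 5.44, 2.03 and −2.02 in wild-type dermis and 8.42, 6.67 and 2.97 in wild-type epidermis (difference −4.20 ± 1.68, adjusted p = 0.0998). Both genes' wild-type groups overlapped, and the Lce3a values and the lowest Lce3f values were dim, at or below 4.43. For scale, 17 genes of other organs on the array had mean signals with a median of 1.94. Their means ran from −0.97 to 7.94, and 5 lay above the filter. The Lce3f difference ranged from −6.01 without wild-type dermis replicate 1, where it passed the threshold (adjusted p = 0.0306), to −2.28 without wild-type dermis replicate 3. The call of 1421355_at of Tgm3 was lost when any 1 of wild-type dermis replicates 1, 2 or 3 or of wild-type epidermis replicates 2 or 3 was left out (adjusted p 0.0644 to 0.154). The other Tgm3 probe set, 1440150_at, was lost without wild-type dermis replicate 2 or 3 or wild-type epidermis replicate 3 (adjusted p 0.0513 to 0.0668), and Asprv1 without wild-type dermis replicate 2 (adjusted p = 0.0513), which left 5 called probe sets. Asprv1 also missed the threshold with one spread shared by all 18 arrays (adjusted p = 0.113) and with array weights (0.128), and 1421355_at with array weights (0.0718), with no filter (0.0603) and after quantile normalization (0.0882).

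The layer labels were checked with marker genes. Of 14 dermal fibroblast genes, 13 were higher in wild-type dermis than in wild-type epidermis, where 9.22% of all tested probe sets were, and of 11 spinous keratinocyte genes, 5 were lower, where 9.46% of all tested probe sets were. Of 12 basal keratinocyte genes, 1 was higher and 1 lower in wild-type dermis, with a median difference of −0.19. Keratinocyte transcripts were still present in the dermal fraction: Krt14, the basal keratin, had a mean of 11.45 ± 0.06 in wild-type dermis and 12.59 ± 0.50 in wild-type epidermis, and Krt10, a spinous keratin, 11.86 ± 0.53 and 13.14 ± 0.46 (SD, n = 3 each). Hair follicles, which lie in dermis, also express Krt14. The Krt14 probe set may also bind other transcripts.

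Flg, Ivl, Casp14, Lce3a and Lce3f were higher in transgenic epidermis than in wild-type epidermis. Of the 10 tested probe sets, 5, from these 5 genes, passed as higher and none as lower, against a background of 0.923% of all tested probe sets called higher. The median difference over the 10 probe sets was 1.32, against −0.20 over all tested probe sets. Tgm1, Asprv1 and the probe set 1439878_at of Ivl were above wild type on every array without passing the threshold, and Tgm3 did not pass in either direction.

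Flg had 11.45, 11.74 and 11.47 in transgenic epidermis, against 8.70, 8.64 and 8.63 in wild-type epidermis. All transgenic arrays lay well above all wild-type arrays, and the SD within a group was 0.16 in transgenic and 0.04 in wild-type epidermis. The difference was 2.90 ± 0.22, or 7.45-fold (95% interval 2.42 to 3.38 on the log2 scale, adjusted p = 0.000455).

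Casp14 encodes caspase 14, a protease of cornifying cells that takes part in the breakdown of filaggrin. Its probe set 1418748_at had 10.24, 10.82 and 10.31 in transgenic epidermis, against 7.54, 8.37 and 7.85 in wild-type epidermis, and the groups did not overlap. That is a difference of 2.54 ± 0.28, or 5.81-fold (adjusted p = 0.00166). The dim probe set 1443787_x_at, whose suffix marks probes that may also bind other transcripts, had 2.33, 3.43 and 3.08 in transgenic epidermis and 4.30, −0.04 and 3.33 in wild-type epidermis, and showed no separation.

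Ivl encodes involucrin, an early scaffold protein of the envelope. With 1422222_at it had 10.18, 10.30 and 9.93 in transgenic epidermis, against 8.17, 8.66 and 8.46 in wild-type epidermis, a difference of 1.71 ± 0.24, or 3.27-fold (adjusted p = 0.00664). With 1439878_at it had 10.75, 11.36 and 10.89 in transgenic epidermis, against 10.32, 9.97 and 9.90 in wild-type epidermis, a difference of 0.94 ± 0.25 (adjusted p = 0.1). Neither probe set overlapped between genotypes, but they differed in the size of the change and only the first passed the threshold.

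Lce3a and Lce3f encode late cornified envelope proteins of the Lce3 group, whose human relatives are known for induction in injured skin. Lce3f had 11.14, 11.21 and 9.92 in transgenic epidermis, against 8.42, 6.67 and 2.97 in wild-type epidermis. Transgenic arrays were all higher, and the wild-type arrays spread widely. The difference was 4.74 ± 1.01 (95% interval 2.53 to 6.95, adjusted p = 0.0429). Lce3a had 7.28, 7.46 and 5.37 in transgenic epidermis, against 4.43, 3.95 and 3.0 in wild-type epidermis, a difference of 2.91 ± 0.59 (95% interval 1.61 to 4.21, adjusted p = 0.0369). Whether the probes of either gene also bind other Lce3 transcripts was not tested.

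The calls of Lce3a, Lce3f and Ivl depended on single arrays or on settings of the fit, whereas Flg and Casp14 passed in epidermis under every alternative run. Lce3a no longer passed without transgenic replicate 1 or 2 or wild-type replicate 3 (adjusted p = 0.199, 0.166 and 0.161), nor with array weights by tissue (adjusted p = 0.107). Lce3f no longer passed without transgenic replicate 1, 2 or 3 (adjusted p = 0.173, 0.143 and 0.0728), and it also missed the threshold after quantile normalization (adjusted p = 0.091), with array weights (0.116), with the filter at the 50th percentile (0.0513) and when all 18 arrays shared one spread (0.0543). Ivl missed it without transgenic replicate 1 (1422222_at, adjusted p = 0.0507). The number of called probe sets was 2 without transgenic replicate 1 and 3 without transgenic replicate 2.

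Among the enzymes, Tgm1 had 8.36, 8.57 and 8.38 in transgenic epidermis and 7.86, 7.52 and 7.12 in wild-type epidermis, a difference of 0.94 ± 0.27 that did not pass (adjusted p = 0.122). Asprv1 encodes a skin protease that cuts the linkers between filaggrin units. It had 11.90, 11.93 and 11.77 in transgenic epidermis and 10.60, 11.57 and 10.89 in wild-type epidermis (difference 0.85 ± 0.28, adjusted p = 0.161). Without wild-type replicate 2 the Asprv1 difference was 1.12 and passed the threshold (adjusted p = 0.0113). Every transgenic array lay above every wild-type array for both genes.

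Tgm3 encodes a soluble transglutaminase that is activated by proteolysis and works in epidermis and hair follicle. With 1421355_at it had 5.81, 6.16 and 6.05 in transgenic epidermis and 5.33, 6.47 and 5.53 in wild-type epidermis, which overlapped (difference 0.23 ± 0.39, adjusted p = 0.765). With 1440150_at it had 5.10, 5.03 and 6.17 in transgenic epidermis and 6.38, 6.18 and 6.25 in wild-type epidermis. Here the transgenic arrays all lay below the wild-type arrays, without passing the test (difference −0.84 ± 0.39, 95% interval −1.69 to 0.02, adjusted p = 0.286). Over the 10 probe sets, 8 had all transgenic arrays above all wild-type arrays and 1 all below, where 8.27% and 14.7% of all tested probe sets did.

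**Figure D2:**
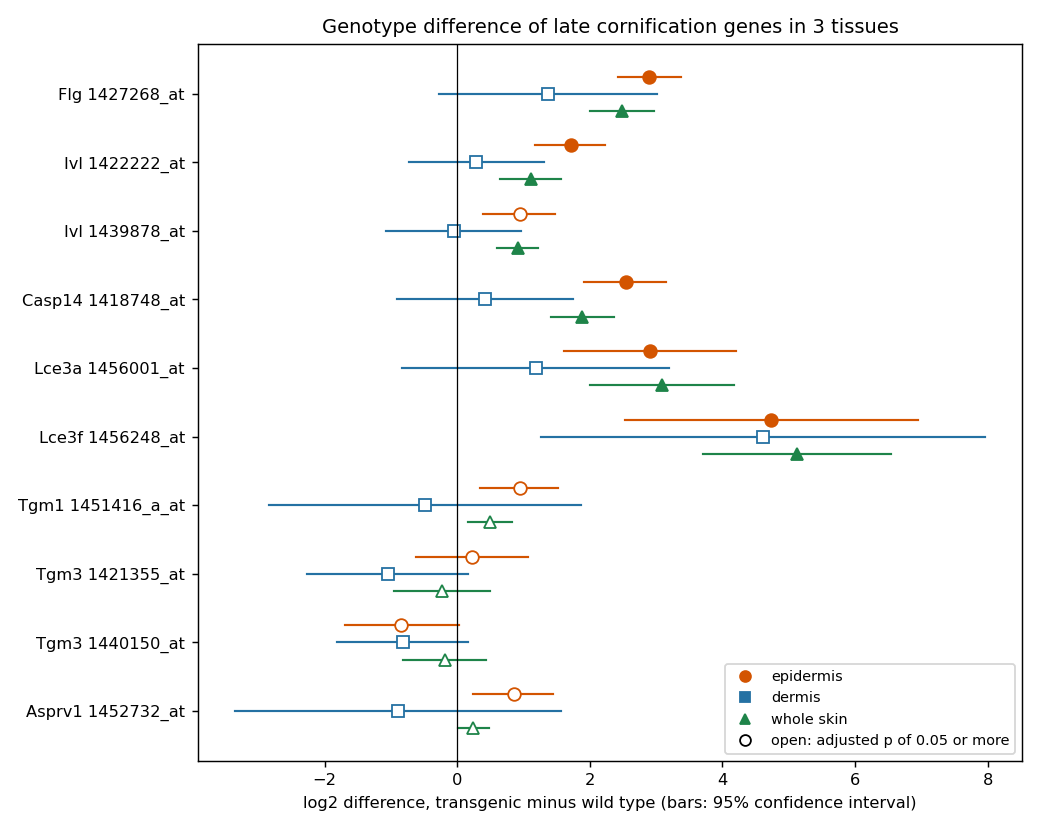
Transgenic minus wild-type difference of mean log2 signals (x axis), for the 10 tested probe sets (y axis) in epidermis (circles), dermis (squares) and whole skin (triangles). Bars are 95% confidence intervals and filled symbols have an adjusted p under 0.05; Flg is filled in epidermis at 2.90 and in whole skin at 2.48, and open in dermis at 1.37.

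Whole skin, in which the layers were not separated, also had Flg, Ivl, Casp14, Lce3a and Lce3f higher in transgenic mice. Of the 10 tested probe sets, 6, including both of Ivl, passed as higher in transgenic whole skin and none as lower, against a background of 0.91% of all tested probe sets called higher. The median difference over the 10 was 1.01, against −0.02 over all tested probe sets. All 6 calls were lost when the 18 arrays were fitted together with one spread shared by all tissues, which gives whole skin the wider spread of the separated layers (adjusted p 0.119 for Flg, 0.213 for Casp14, 0.24 for Lce3a, 0.379 for Lce3f, and 0.705 and 1.0 for Ivl).

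Flg had 10.15, 11.06 and 10.15 in transgenic whole skin, against 7.91, 8.08 and 7.92 in wild-type whole skin, a difference of 2.48 ± 0.22, or 5.59-fold (adjusted p = 0.00116). Casp14 had 8.86, 9.52 and 8.64 in transgenic whole skin and 7.34, 7.06 and 6.97 in wild-type whole skin, a difference of 1.89 ± 0.21, or 3.70-fold (adjusted p = 0.00386). Neither gene overlapped between genotypes.

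Lce3f had 10.06, 7.52 and 7.08 in transgenic whole skin, against 3.17, 3.40 and 2.73 in wild-type whole skin, a difference of 5.12 ± 0.63 (95% interval 3.70 to 6.55, adjusted p = 0.00629). Lce3a had 6.12, 5.82 and 4.33 in transgenic whole skin and 2.44, 1.77 and 2.79 in wild-type whole skin, a difference of 3.09 ± 0.48 (adjusted p = 0.0171). The wild-type values of both genes lay near or below the filter, so the size of these differences on the log2 scale is imprecise.

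Ivl had 8.88, 8.87 and 8.14 in transgenic whole skin and 7.29, 7.74 and 7.55 in wild-type whole skin with 1422222_at (difference 1.11 ± 0.20, adjusted p = 0.034). With 1439878_at it had 9.48, 9.69 and 9.39 in transgenic whole skin and 8.37, 8.88 and 8.57 in wild-type whole skin (difference 0.91 ± 0.14, adjusted p = 0.0157). Both probe sets were higher on every transgenic array. The Ivl and Lce3a calls were lost without transgenic replicate 1, transgenic replicate 2 or wild-type replicate 1, which left 3 called probe sets each time, and 1422222_at was lost also without wild-type replicate 3 (adjusted p = 0.0764). The adjusted p of these lost calls lay between 0.061 and 0.146.

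Tgm1 had 7.60, 7.56 and 7.14 in transgenic whole skin and 6.96, 6.99 and 6.86 in wild-type whole skin (difference 0.50 ± 0.15, adjusted p = 0.144). Asprv1 had 11.39, 11.72 and 11.29 in transgenic whole skin and 11.15, 11.26 and 11.25 in wild-type whole skin (difference 0.24 ± 0.10, adjusted p = 0.304). Both sat above wild type on every array by amounts that did not pass the test. Tgm3 overlapped between genotypes with both probe sets, with differences of −0.23 ± 0.32 and −0.19 ± 0.28. In all, 8 of the 10 probe sets had every transgenic array above every wild-type array, where 9.66% of all tested probe sets did.

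In dermis no probe set of the 8 genes passed the test, against a background of 0.0222% of all tested probe sets called (7 of 31526), and 1 of the 10, Lce3f, had an unadjusted limma p under 0.05, where 3.91% of all tested probe sets did. The transgenic dermis arrays differed widely among themselves. Flg had 7.64, 8.99 and 5.78 in transgenic dermis and 6.67, 5.09 and 6.55 in wild-type dermis, a difference of 1.37 ± 0.73 (95% interval −0.27 to 3.01, adjusted p = 0.99). Transgenic replicate 2 was the highest and replicate 3 lay within the wild-type range, and the difference was 0.61 without transgenic replicate 2, 0.86 without wild-type replicate 2 and 2.21 without transgenic replicate 3. Asprv1 had 10.72, 8.98 and 5.32 in transgenic dermis and 9.24, 8.33 and 10.12 in wild-type dermis (difference −0.89 ± 1.10). Tgm1 had 6.07, 5.40 and 1.38 in transgenic dermis and 4.61, 4.31 and 5.41 in wild-type dermis (difference −0.49 ± 1.05). In both, transgenic replicate 1 was the highest of the 6 arrays and transgenic replicate 3 the lowest.

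Lce3f was the only probe set with every transgenic dermis array above every wild-type dermis array, with 5.58, 7.28 and 6.44 in transgenic dermis, against 5.44, 2.03 and −2.02 in wild-type dermis (difference 4.61 ± 1.5, 95% interval 1.27 to 7.96, adjusted p = 0.99). Leaving out wild-type replicate 3 gave a difference of 2.69, leaving out wild-type replicate 1 gave 6.43, and it missed the threshold whichever of the 6 dermis arrays was left out. Lce3a had 2.14, 5.76 and 4.12 in transgenic dermis and 3.29, 2.70 and 2.46 in wild-type dermis, which overlapped. Casp14 had 6.75, 7.78 and 5.29 in transgenic dermis and 6.58, 5.50 and 6.49 in wild-type dermis, and Ivl differed by 0.29 ± 0.46 and −0.05 ± 0.46.

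Both probe sets of Tgm3 had every transgenic dermis array below every wild-type dermis array. With 1421355_at Tgm3 had 2.96, 3.46 and 3.39 in transgenic dermis and 4.37, 4.69 and 3.91 in wild-type dermis (difference −1.05 ± 0.54). With 1440150_at it had 4.27, 3.97 and 3.86 in transgenic dermis and 5.11, 4.70 and 4.76 in wild-type dermis (difference −0.82 ± 0.44). Neither passed the test, and 6.04% of all tested probe sets had every transgenic dermis array below every wild-type dermis array, where 3.09% had every one above.

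Keratinocyte and other markers also varied between the dermis arrays. The mean log2 signal of 12 spinous keratinocyte genes on the array was 9.03, 9.20 and 7.99 in transgenic dermis and 9.94, 9.14 and 9.57 in wild-type dermis. Transgenic replicate 3 was lowest by that mean. By summed linear signal transgenic replicate 1 was lowest, with 14281, 19939 and 17682 in transgenic dermis and 29336, 19326 and 19494 in wild-type dermis. The mean of 12 basal keratinocyte genes was 9.05, 8.98 and 8.70 in transgenic dermis and 9.55, 9.50 and 9.48 in wild-type dermis. Their summed signal was 12478, 13618 and 15095 in transgenic dermis and 18144, 18677 and 15912 in wild-type dermis. By both measures of the basal list, every transgenic dermis array lay below every wild-type dermis array. Singly, 4 of the 12 genes did so, where 6.04% of all tested probe sets did, and none passed the test. The summed linear signal of 6 skeletal muscle genes was 3638, 11472 and 124 in transgenic dermis and 7877, 182 and 282 in wild-type dermis. Inner root sheath genes of the hair follicle separated the genotypes in the other direction. Their mean log2 signal over 9 genes was 7.56, 6.76 and 6.42 in transgenic dermis and 2.17, 1.94 and 2.12 in wild-type dermis. Of 6 tested, 4 were higher in transgenic dermis (Krt25, Krt27, Krt71 and Tchh, by 8.45 ± 0.36, 8.26 ± 0.76, 5.79 ± 0.53 and 4.51 ± 0.36), where 0.0222% of all tested probe sets were called in either direction. The part of these differences in the values of Flg and the other genes was not tested.

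**Figure D3:**
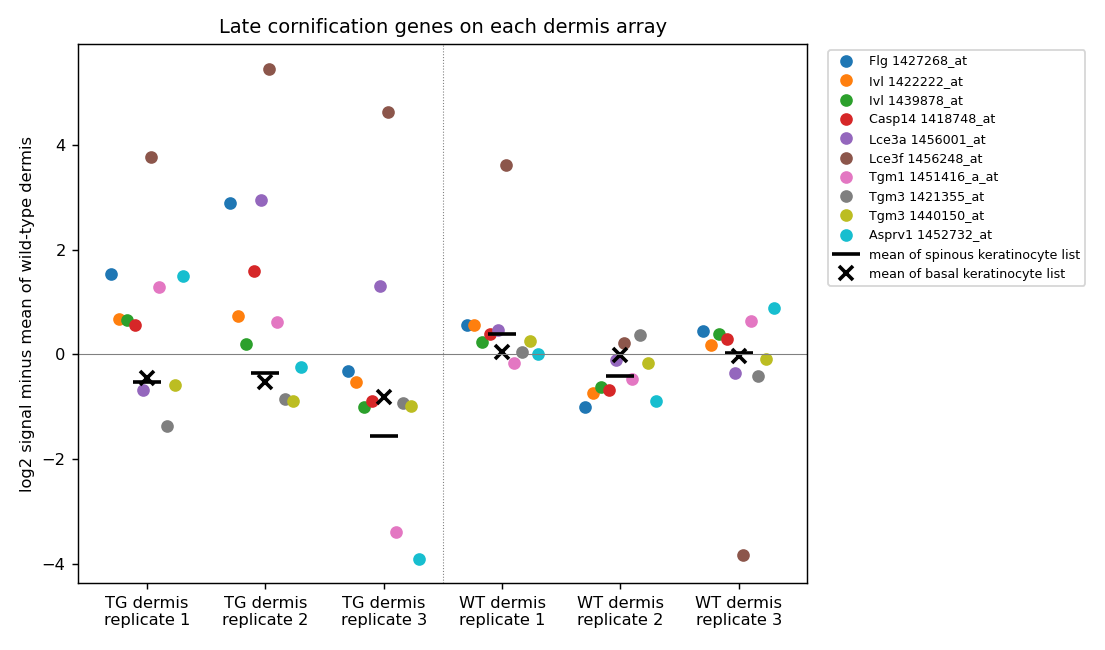
Log2 signal of the 10 tested probe sets on each dermis array, minus the mean of the wild-type dermis arrays (y axis), with transgenic replicates left of wild-type replicates (x axis). Coloured points are probe sets, black bars and crosses are the means of the spinous and basal keratinocyte lists; Flg is highest on transgenic replicate 2 (8.99 before subtraction), and Asprv1 lowest on transgenic replicate 3 (5.32).

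The difference between tissues was tested directly as an interaction, which asks whether the transgenic minus wild-type difference in one tissue exceeds that in another. For dermis minus epidermis, none of the 10 probe sets passed, and none of the 31526 did (background 0.0%). The genotype difference of Flg was −1.53 ± 0.84 in dermis relative to epidermis (95% interval −3.33 to 0.27), and −2.29 to −0.68 when 1 array at a time was left out. For Casp14 it was −2.12 ± 0.70 (95% interval −3.63 to −0.62) and for 1422222_at of Ivl −1.42 ± 0.53 (95% interval −2.55 to −0.28) (adjusted p = 0.636 and 0.649). These 2 of the 10 probe sets had an unadjusted limma p under 0.05, where 7.4% of all tested probe sets did. Lce3f, with −0.12 ± 2.09, had an interval from −4.58 to 4.34. No difference between the effects in dermis and epidermis was established for any of the 8 genes, and the wide intervals do not show that the effects were alike.

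For whole skin minus epidermis, again none of the 10 probe sets passed (background 0.0222%, 7 of 31526), and none had an unadjusted limma p under 0.05, where 11.4% of all tested probe sets did. The Flg difference was −0.41 ± 0.31 in whole skin relative to epidermis (95% interval −1.07 to 0.24), and those of Lce3a and Lce3f were 0.18 ± 0.86 and 0.39 ± 1.49. This fit gave whole skin and epidermis a common spread for each probe set, although whole-skin arrays varied less, which limits these standard errors and p-values. Without wild-type epidermis replicate 2, Asprv1 passed with −0.88 (adjusted p = 0.0287).

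Placed in order over the 6 groups, Flg had a mean of 11.55 ± 0.16 in transgenic epidermis, 10.45 ± 0.52 in transgenic whole skin, 8.65 ± 0.04 in wild-type epidermis, 7.97 ± 0.10 in wild-type whole skin, 7.47 ± 1.61 in transgenic dermis and 6.10 ± 0.88 in wild-type dermis (SD, n = 3 each). The first 3 steps of this order did not overlap, and the last 2 did. Casp14 (1418748_at) had the same order and the same overlaps. For Lce3a and Lce3f every neighbouring pair of groups in the order overlapped. Tgm1 and Asprv1 had their highest mean in transgenic epidermis and their lowest in transgenic dermis (4.28 ± 2.54 and 8.34 ± 2.76), and 1440150_at of Tgm3 was the only tested probe set with its highest mean in wild-type epidermis (6.27 ± 0.10).

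Across the 18 arrays, and with the probe set of the highest mean for each gene, Flg and Casp14 had the closest patterns of the 8 genes, with a Pearson r of 0.978, followed by Tgm1 and Asprv1 with 0.959 and by Ivl and Tgm1 with 0.914. Lce3a and Lce3f had 0.857. Tgm3 was the least like the others, with r between 0.017 (Lce3a) and 0.579 (Ivl). The arrays share tissue and genotype, so these values describe the pattern and are not tests.

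Outside the 8 genes, the patterns most like Flg over the 18 arrays were those of Stfa3 (Pearson r 0.947), Il1f8 (0.942), Glrx (0.935), S100a9 (0.934) and Stfa2l1 (0.932). Stfa3 and Stfa2l1 encode stefins, which inhibit cysteine proteases, Il1f8 encodes the cytokine IL-36 beta, Glrx a glutaredoxin and S100a9 a calprotectin subunit. Il1f8 (0.955) and Stfa3 (0.947) also led for Casp14. Ivl was most like Klk11 (0.986) and Klk7 (0.981), kallikrein proteases of the kind that shed corneocytes. Lce3a was most like Sprr2f (0.919) and Sprr2h (0.915), and Lce3f most like Sprr2d (0.911) and S100a8 (0.91). The probe sets of Sprr2h and S100a8 may also bind other transcripts. Tgm1 was most like Calm4 (0.98) and Il1f9 (0.975), Tgm3 most like Tpra1 (0.947) and Cers6 (0.944), and Asprv1 most like Nt5c3 (0.979) and Il18 (0.975).

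Other genes of cornification were set beside the 8, with 1 probe set per gene. In the small proline-rich family, whose members are cross-linked into the envelope, 4 of 7 tested genes were higher in transgenic epidermis and 5 of 7 in transgenic whole skin, where 0.923% and 0.91% of all tested probe sets were, and none was lower in either. Sprr1b averaged 11.35 ± 0.34 in transgenic epidermis and 6.71 ± 1.49 in wild-type epidermis (difference 4.64 ± 0.57, adjusted p = 0.0032), and Sprr2h 8.97 ± 0.79 and 5.44 ± 0.18 (difference 3.52 ± 0.38, adjusted p = 0.00131). The Sprr2h probe set may also bind other transcripts. Sprr2d and Sprr1a were higher by 4.57 ± 0.68 and 1.39 ± 0.30. The median difference of this list was 2.83 in epidermis and 3.39 in whole skin, against −0.10 and −0.01 over all genes.

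The rest of the LCE family, apart from Lce3a and Lce3f, gave few calls. Of 13 tested genes, Lce1h was higher in transgenic epidermis, where 0.923% of all tested probe sets were. Its difference was 1.31 ± 0.29 (adjusted p = 0.04998), with a probe set that may also bind other transcripts. None of the 13 was lower, and the list's median difference was −0.21, against −0.10 over all genes. In whole skin Lce1m was lower (difference −0.69 ± 0.09, adjusted p = 0.00882; 0.653% of all tested probe sets were lower), and none was higher. In whole skin 4 of the 13 had every transgenic array above every wild-type array, where 9.66% of all tested probe sets did, and 1 had every one below. The list's median difference there was 0.22, against −0.01 over all genes. In wild-type skin 11 of the 13 were lower in dermis than in epidermis, where 9.46% of all tested probe sets were. The other tested Lce3 genes, named after their values were seen, were Lce3b, with 6.01 ± 0.96 in transgenic epidermis and 6.78 ± 1.07 in wild-type epidermis, and Lce3c, with 7.65 ± 0.80 and 6.58 ± 1.16. Neither passed the test (adjusted p = 0.482 and 0.322). The probe sets of Lce1m, Lce3b and Lce3c may also bind other transcripts.

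RefSeq's gene order places 36 annotated genes between Ivl and Flg, leaving out Lce3a and Lce3f, and 16 of them were tested, most of them LCE genes. Of these, 1 was higher in transgenic epidermis (Lce1h), where 0.923% of all tested probe sets were, and none was lower. Between the wild-type layers, 14 of the 16 were lower in dermis than in epidermis, where 9.46% of all tested probe sets were.

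Among the fused S100 proteins, the family of filaggrin, 1 of 4 tested genes was higher in transgenic epidermis, where 0.923% of all tested probe sets were. That was Rptn, repetin, with 10.70 ± 0.81 in transgenic epidermis and 7.37 ± 0.76 in wild-type epidermis (difference 3.33 ± 0.44, adjusted p = 0.00461). In whole skin none of the 4 passed. The genotype difference of Rptn was −2.43 ± 0.58 in whole skin relative to epidermis, which did not pass (adjusted p = 0.258). Hrnr, hornerin, a protein much like filaggrin, had 10.34 ± 0.19 in transgenic epidermis and 10.27 ± 0.61 in wild-type epidermis (difference 0.07 ± 0.30, adjusted p = 0.911), and 0.07 ± 0.12 was its difference in whole skin. Tchh, trichohyalin, counted above among the inner root sheath genes, was higher in transgenic dermis by 4.51 ± 0.36 (adjusted p = 0.00458). Flg2 was not among the named probe sets.

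Of 12 tested other envelope precursors, Stfa3 was higher in transgenic epidermis (difference 1.78 ± 0.31, adjusted p = 0.0185), and Stfa3 and Csta1 were higher in transgenic whole skin (differences 2.65 ± 0.16 and 0.58 ± 0.11). Over all tested probe sets, 0.923% were higher in transgenic epidermis and 0.91% in transgenic whole skin. None of the 12 was lower in either tissue. Lor, loricrin, the main envelope protein, had 12.11 ± 0.17 in transgenic epidermis and 12.83 ± 0.66 in wild-type epidermis (difference −0.72 ± 0.32, adjusted p = 0.272), and differed by 0.16 ± 0.11 in whole skin (adjusted p = 0.515).

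None of 17 tested genes of filaggrin processing, other than Casp14 and Asprv1, passed in limma in epidermis, dermis or whole skin. In epidermis 7 were higher and 1 lower at an unadjusted limma p under 0.05, where 7.0% and 10.9% of all tested probe sets were. None of 4 other transglutaminases passed in these tissues either. With the same unadjusted shares over all tested probe sets in epidermis, 1 of the 4 was higher and 1 lower at an unadjusted limma p under 0.05. Of 22 transcription factors of late differentiation, Ehf, an ETS factor of epithelia, was higher in transgenic epidermis (difference 1.79 ± 0.26, adjusted p = 0.0084) and Gata3, a zinc-finger factor of keratinocytes, was lower (difference −1.49 ± 0.27, adjusted p = 0.0223). Over all tested probe sets there, 0.923% were higher and 0.568% lower. In whole skin Ehf and Cebpb, which encodes a C/EBP factor, were higher, by 0.83 ± 0.14 and 0.67 ± 0.09, where 0.91% of all tested probe sets were.

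**Figure D4:**
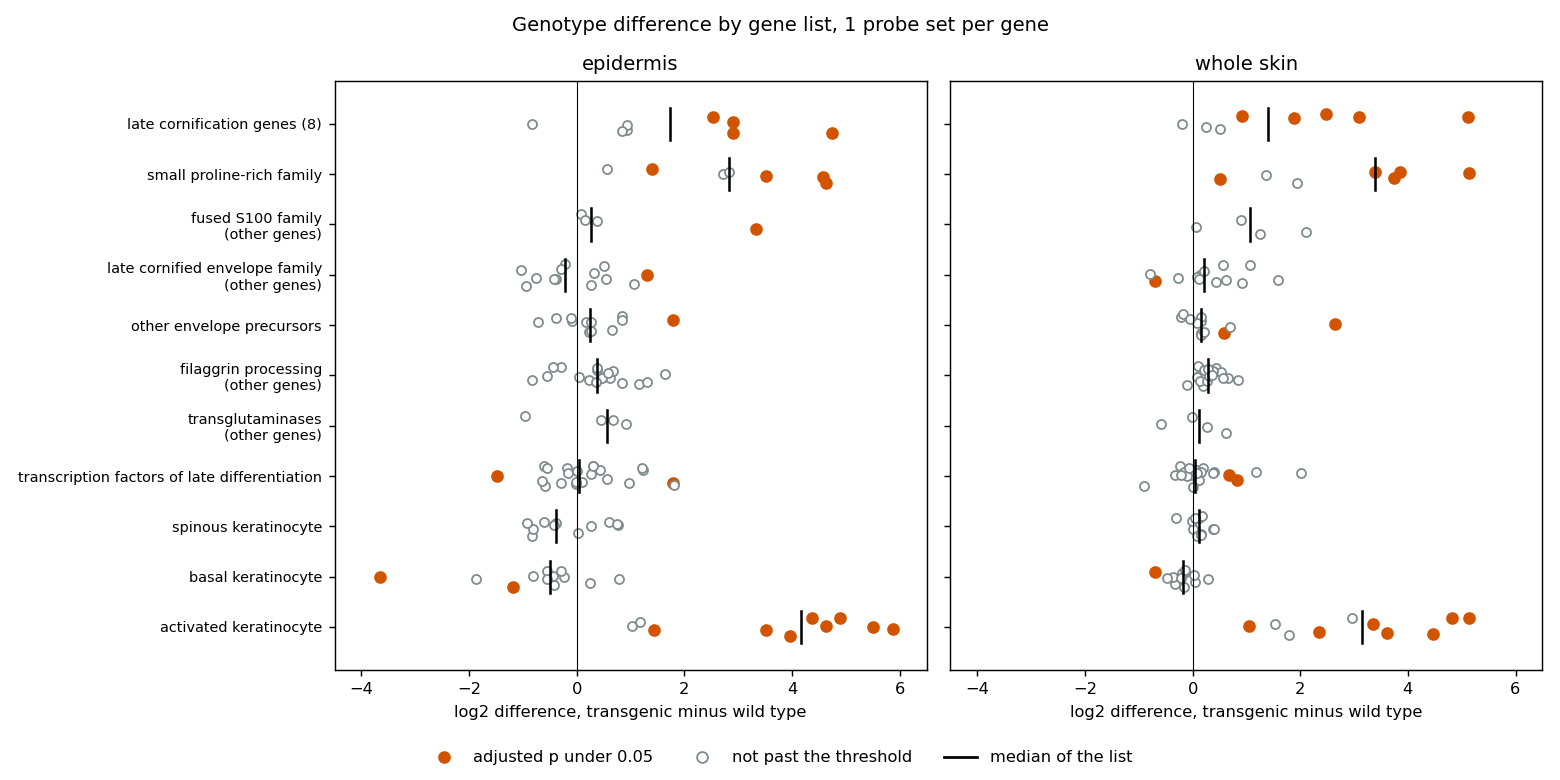
Transgenic minus wild-type difference of mean log2 signals (x axis), for each tested gene of the lists (y axis) in epidermis (left) and whole skin (right), with 1 probe set per gene (for Ivl 1439878_at, for Tgm3 1440150_at). Filled points have an adjusted p under 0.05 and vertical bars are medians of a list; the small proline-rich list has its median at 2.83 in epidermis and the other LCE genes at −0.21.

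Markers of keratinocyte state and layer were set beside these genes. Of 10 tested markers of activated keratinocytes, the state of wounded or inflamed epidermis, 8 were higher in transgenic epidermis and 7 in transgenic whole skin, where 0.923% and 0.91% of all tested probe sets were. Krt6a, a keratin of that state, had 11.65 ± 0.43 in transgenic epidermis and 6.76 ± 1.07 in wild-type epidermis (difference 4.89 ± 0.45, adjusted p = 0.000684), and S100a9 was higher by 3.97 ± 0.42 (adjusted p = 0.00131). The summed linear signal of this list was 12413 to 26775 in transgenic epidermis and 1224 to 2854 in wild-type epidermis. Sprr1b belongs to this list as well as to the small proline-rich family.

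Of 12 basal markers, Krt15 and Col17a1 were lower in transgenic epidermis (differences −3.66 ± 0.36 and −1.19 ± 0.24) and none was higher, where 0.568% of all tested probe sets were lower. The list's summed signal was 13439 to 14393 in transgenic epidermis and 18943 to 23909 in wild-type epidermis. In whole skin 1 of the 12 was lower and none higher, where 0.653% of all tested probe sets were lower. The sums there overlapped, with 13866 to 14164 in transgenic and 13952 to 16203 in wild-type whole skin. Krt15 fell less in whole skin than in epidermis (interaction 3.5 ± 0.43, limma adjusted p = 0.0417), where 0.0222% of all tested probe sets passed in either direction. None of 11 spinous markers passed in limma in epidermis. At an unadjusted limma p under 0.05, 3 were higher and 3 lower, where 7.0% and 10.9% of all tested probe sets were. Krt1 differed by 0.76 ± 0.30 (adjusted p = 0.223) and Krt10 by −0.60 ± 0.28 (adjusted p = 0.284). The spinous list's summed signal overlapped, with 36369 to 42950 in transgenic epidermis and 38904 to 61423 in wild-type epidermis. Its mean log2 signal did not overlap and was lower in transgenic epidermis, with 10.34 to 10.53, against 10.67 to 11.08 in wild-type epidermis. Krt14, whose promoter drives the transgene, differed by −0.42 ± 0.29 (adjusted p = 0.447), with a probe set that may also bind other transcripts.

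Fibroblast markers also differed between the epidermis groups. Of 14, 3 (Col6a2, Col5a1 and Col6a1) were higher in transgenic epidermis (differences 2.63 ± 0.30, 2.20 ± 0.34 and 2.55 ± 0.43), where 0.923% of all tested probe sets were. At an unadjusted limma p under 0.05, 8 of the 14 were higher and 0 lower, where 7.0% and 10.9% of all tested probe sets were. The list's median difference was 0.83, against −0.10 over all genes. Its summed signal was 11470 to 17758 in transgenic epidermis and 4780 to 10726 in wild-type epidermis. Its mean log2 signal overlapped, with 8.02 to 9.05 in transgenic and 6.87 to 8.35 in wild-type epidermis. Of the 14, 4 had every transgenic epidermis array above every wild-type one, where 8.27% of all tested probe sets did. In whole skin 2 were called higher and 1 lower, where 0.91% and 0.653% of all tested probe sets were. The median difference there was 0.02, against −0.01 over all genes. Leukocyte markers gave 0 calls among 13 in limma, with 2 lower at an unadjusted p under 0.05, where 10.9% of all tested probe sets were. The epidermis arrays also differed in muscle transcripts, without separating the genotypes. The summed linear signal of 6 skeletal muscle genes was 443, 369 and 3421 in transgenic epidermis and 337, 3198 and 1133 in wild-type epidermis. The part of any of these marker shifts in the differences of Flg, Ivl, Casp14, Lce3a and Lce3f was not tested.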

How the data were processed

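RNA from 18 samples (3 tissues, 2 genotypes, 3 arrays each) was hybridised to Affymetrix arrays after column extraction, amplification and biotin labelling, per the labels' protocols. The authors deposited 1 table of 45037 probe sets, used here as log2 values of MAS5 signal; MAS5 is named in the submitters' processing notes, and its version and scaling target are not stated there. The log2 scale was read from the values, which ran from −7.52 to 14.42 and, on the linear scale, had trimmed means (2% off each end) of 98.92 to 99.52 on every array. MAS5 spreads dim probe sets widely, so differences against dim values are imprecise, and the number of arrays limits all precision. None of 153 array pairs was identical.

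Gene symbols came from the annotation of the platform (34945 with 1 symbol, 932 with several, 9160 not named here), with 34741 Entrez identifiers matched to a RefSeq table and 0 symbols changed. Probe sets with a mean above the 30th percentile, 3.15, were fitted with limma 3.58.1 (R 4.3.3, lmFit and eBayes with trend) on the arrays of the compared tissues, with Benjamini-Hochberg adjustment over all 31526 and a threshold of 0.05. Only those arrays entered because the spread was wider in the separated layers. Fits across tissues, the interactions among them, still gave the compared tissues a common spread. All member probe sets are named, and from each list up to 4 called genes with the smallest adjusted p, plus Lor, Flg2, Hrnr, Krt1, Krt10 and Krt14; likeness names the 5 genes with the highest r for Flg and 2 for each other gene. The 8 genes, the lists and the tests were chosen with earlier results of these data known, and the list of genes between Ivl and Flg was added later. The fit was also run on simulated data, whose outcome is not given here. The simulated noise was normal and independent between arrays, with the same spread in both genotypes of a tissue, unlike these arrays.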

Additional observations from a re-analysis of the deposited data

How the results depend on the processing

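Leaving out each array in turn gave 2 to 6 called probe sets of the 8 genes in epidermis (main 5), 3 to 6 in whole skin (main 6), 5 to 8 between wild-type dermis and epidermis (main 8), 0 to 1 for whole skin minus epidermis, and 0 in dermis and for dermis minus epidermis. Other settings gave 3 in epidermis with array weights or a filter at the 50th percentile, where Lce3a falls below the filter, and 0 in whole skin with all 18 arrays sharing one spread. Over all probe sets, leaving out an array gave 88 (without transgenic replicate 1) to 2396 (without wild-type replicate 2) calls in epidermis (main 470), 1 to 36 in dermis (main 7), 138 to 509 in whole skin (main 493), 0 to 45 for dermis minus epidermis (main 0), 0 to 1588 (without wild-type epidermis replicate 2) for whole skin minus epidermis (main 7) and 2461 to 8818 between the wild-type layers (main 5889). One shared spread over all arrays gave 1811 calls in epidermis, 56 in dermis, 34 in whole skin and 45 for dermis minus epidermis. Array weights gave 852, 4, 790 and 6, and 43 for whole skin minus epidermis. The filter at the 50th percentile gave 4 in dermis. For dermis minus epidermis, no filter gave 7, adding 16 gave 14 and 1 probe set per gene 3. For whole skin minus epidermis, quantile normalization gave 4 and a common 75th percentile 3, and 1 probe set per gene gave 2684 between the wild-type layers. The cause of these shifts was not tested.

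Scaling moved the median of all tested probe sets in epidermis to 0.001 (quantile) and −0.084 (75th percentile), against −0.198 as deposited, and the calls higher and lower to 252 and 120 (quantile) and 356 and 146 (75th percentile), against 291 and 179. In whole skin the 75th percentile gave 381 higher and 181 lower, against 287 and 206. No member difference turned its sign under scaling in epidermis or whole skin. Differences that turned their sign were not called: in dermis, Ivl 1439878_at at a common 75th percentile (0.01) and Tgm1 with 16 added (0.03); for dermis minus epidermis, Tgm3 1440150_at (−0.16 quantile, −0.03 75th percentile) and Lce3f (0.06 quantile); for whole skin minus epidermis, under quantile normalization Flg (0.12), Ivl 1439878_at (0.23) and Lce3a (−0.43), and with 16 added Lce3a (−0.5) and Lce3f (−0.43). Leaving out an array turned further uncalled signs. In dermis the ranges were −0.17 to 1.08 for Casp14, −0.08 to 0.70 and −0.41 to 0.42 for Ivl, −1.39 to 0.96 for Tgm1 and −2.08 to 0.62 for Asprv1, and in whole skin −0.50 to 0.09 for Tgm3 1421355_at. For dermis minus epidermis they were −0.18 to 0.39 for Tgm3 1440150_at, −2.32 to 0.02 for Tgm1 and −2.04 to 1.69 for Lce3f, and for whole skin minus epidermis −0.15 to 0.15 for Ivl 1439878_at, −0.48 to 0.73 for Lce3a and −0.81 to 1.91 for Lce3f.

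Arrays with the same replicate number did not deviate together between genotypes within a tissue or between the wild-type layers (correlations of −0.329 to 0.073), and other pairs of groups were not compared, so the numbers were not taken to pair the samples. With the replicate number as a block, the members' counts were 5 in epidermis, 6 in whole skin, 0 in dermis and 9 between the wild-type layers, where Lce3f then passed, and over all probe sets 192 in epidermis, 1 for dermis minus epidermis and 0 for whole skin minus epidermis. Of 996 single-gene values recomputed, 906 kept direction and side of the threshold, 42 lost a call, 5 gained one and 43 turned sign.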
